A study of Capra hircus with 29 samples.

Results

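The 10 genes described here handle fatty acids in goat oocytes: the fatty acid binding proteins FABP1, FABP3 and FABP5, the lipid droplet proteins PLIN2 and PLIN3, the lipase PNPLA2, the carnitine palmitoyltransferases CPT1A and CPT2, and the β-oxidation enzymes ACADVL and HADHA. They were selected by gene symbol and match 13 rows of a table with 21343 rows and 18580 symbols. FABP1 was chosen for its difference between oocytes of medium follicles from high and low fertility goats. That difference is given as a description, and fits of that contrast are no independent test of it. The other 9 genes were placed beside FABP1 for their roles.

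Expression was measured by RNA-seq as FPKM, fragment numbers normalised to transcript length and library size, in 29 oocyte samples of Ji'ning grey goat. The samples came from goats of larger litters (high fertility, H) and smaller litters (low fertility, L), and from large (L), medium (M) and small (S) follicles. The letter O stands for oocyte, and HSO had 4 samples while HLO, LLO, HMO, LMO and LSO had 5. Per the authors' methods, oocytes of a stage were pooled within a population and then divided into samples of a few oocytes. The samples are thus not separate goats, and the goats behind a sample are not recorded. The p-values and intervals below measure the spread between samples of a pool, not between goats, and that spread may be partly technical.

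Fatty acids are poorly soluble in the cytosol, where FABPs carry them to membranes, droplets and organelles. Surplus fatty acids are stored as triglyceride in lipid droplets, which perilipins coat and lipases open. Long-chain acyl groups enter mitochondria through CPT1, a carnitine carrier and CPT2, and are then shortened by β-oxidation. Oocytes of ruminants are known for their many lipid droplets, and β-oxidation is known to serve oocyte maturation.

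Of 14 listed oocyte markers, 13 had a row and 11 had a mean above 0.5 FPKM. NOBOX and NLRP5 were low, with medians of 0.334 and 0.274 FPKM. The summed FPKM of the 13 oocyte markers, among them GDF9, BMP15 and ZP3, ran from 642.2 to 9217. By contrast, 12 granulosa cell markers summed to 2.10 to 27.3, with a median of 2.90, and AMH was listed at 0 in all samples. The granulosa sum was 26.6 in LMO replicate 5, 27.3 in LSO replicate 5 and at most 6.70 in the other samples, and TNFAIP6 reached 18.15 FPKM. The theca and stroma list summed to 9.65 to 61.3, with STAR between 4.32 and 39.0 FPKM. Summed FPKM per sample ran from 222697 in LMO replicate 2 to 490048, and FPKM values alone do not give the number of reads behind them. The number of genes above 0.5 FPKM split the samples into 14 with 6646 to 7699 genes and 15 with 7980 to 8689 genes, which are called the samples with fewer and with more detected genes below. Both kinds occurred in every group, 7 and 7 in high fertility and 7 and 8 in low fertility. They went with the replicate numbers: all 6 samples numbered 1 had more detected genes and all 11 numbered 2 or 3 had fewer.

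The members fell into 2 kinds by level. FABP3, FABP5, PLIN2 and HADHA were above 0.5 FPKM in all 29 samples, while FABP1 passed that level in 12 samples, CPT2 and ACADVL in 1 each, and PLIN3, PNPLA2 and CPT1A in none. FABP3 was the most abundant member at 642.9 ± 289.4 FPKM (SD, n = 29), higher than 99.4% of the genes of the table. FABP5 followed at 367.9 ± 197.5 FPKM (99.04% of genes below it), then HADHA at 22.4 ± 8.41 and PLIN2 at 21.79 ± 20.03 FPKM. The means of HADHA and PLIN2 lay well within each other's SD. FABP1 averaged 0.418 ± 0.452 FPKM and was listed at 0 in 13 samples.

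FABP1, the liver-type binding protein known from hepatocytes and enterocytes, was low in these oocytes and was listed at 0 in part of the samples of every group but HMO. In HMO it measured 1.10, 0.952, 0.705, 0.931 and 1.44 FPKM in replicates 1 to 5. In LMO it was listed at 0 in replicates 1 to 4 and measured 0.223 FPKM in replicate 5. LMO replicate 5 also had a granulosa marker sum of 26.6 FPKM. LSO replicate 5, with a sum of 27.3 FPKM, listed FABP1 at 0, and the part of granulosa cells was not tested. The lowest HMO sample was thus above the highest LMO sample. The share of the FPKM sum in mitochondrially encoded genes also differed between these groups, at 0.0222 to 0.0894% in HMO and 0.0867 to 1.09% in LMO, and its part in the FABP1 values was not tested.

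The HMO and LMO means were 1.02 ± 0.269 and 0.0445 ± 0.0996 FPKM (SD, n = 5 each), a difference of 0.949 on the log2(FPKM + 1) scale, which understates changes of low genes. With a pseudocount of 0.1 the difference was 3.12, so its size rests on the pseudocount. It was 0.880 to 1.01 when each sample was left out in turn, and 0.987 with a term for samples with fewer or more detected genes. These fits reuse the values that chose FABP1, so they give its difference no independent support. Of all 16021 genes above 0 in these samples, 1.49% had HMO and LMO values that did not overlap. In the fit of this contrast, 8.67% of 8390 genes had an unadjusted p under 0.05 and 6 genes, 0.0715%, passed after adjustment. FABP1 was chosen as the one member among those 6, so nothing is read from its count. Its adjusted call was lost in 8 of the 10 fits that left out 1 sample (HMO replicate 1, 4 or 5, or any LMO replicate) and with no filter. The 10 fits with 1 sample left out called between 0 and 160 genes after adjustment.

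In the other stages FABP1 did not separate the populations. In large follicles the HLO samples measured 0, 0.660, 0.655, 0.512 and 0 FPKM, and the LLO samples 0.422, 0.685, 0.408, 1.01 and 0 FPKM. In small follicles HSO replicates 1, 3, 4 and 5 measured 0.420, 0, 0 and 0 FPKM, and LSO replicates 1 to 5 measured 0.867, 0, 0, 1.14 and 0 FPKM. Each of these 4 groups held both zeros and values above 0.4 FPKM, and the groups overlapped in both stages.

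The fertility difference of FABP1 in large follicles was −0.14 on the log2(FPKM + 1) scale (95% interval −0.64 to 0.36, limma adjusted p = 0.885). With large and small follicles in one fit and stage as a covariate, it was −0.20 (95% interval −0.57 to 0.16, adjusted p = 0.706), with the low fertility mean the higher one. FABP1 was too low in small follicles to be tested alone. Its fertility difference in large minus that in small follicles was 0.13 (95% interval −0.62 to 0.88, limma adjusted p = 0.974). By group mean the order was HMO, LLO at 0.506, LSO at 0.401, HLO at 0.366, HSO at 0.105 and LMO at 0.0445 FPKM, and neighbours in this order below HMO differed by less than the larger of their SDs.

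**Figure D1:**
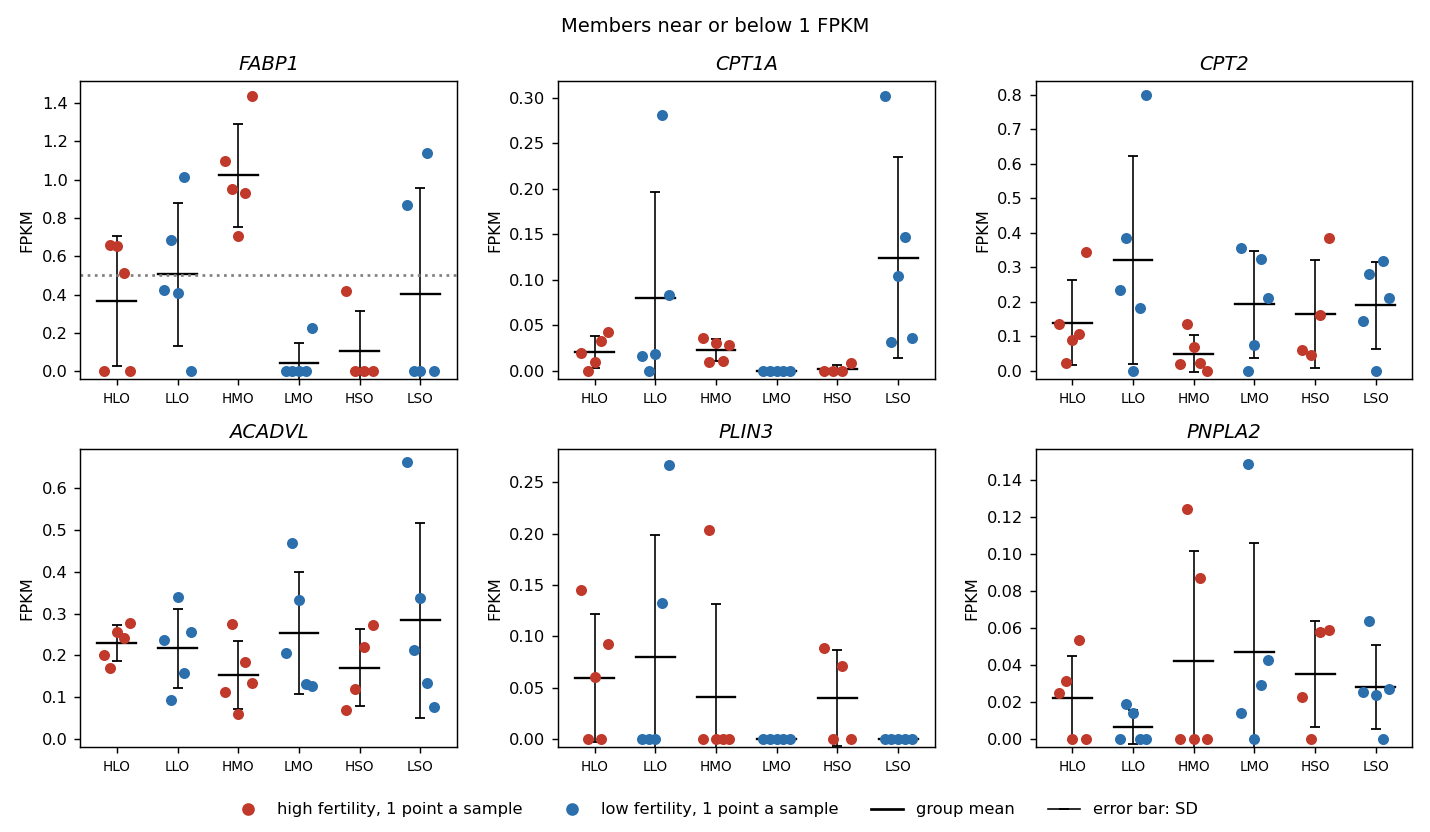
FPKM (linear axis) of the 6 low members in each sample, by group; points are samples, black lines are group means and error bars are SDs, and the dotted line in the FABP1 panel marks 0.5 FPKM. The 5 HMO samples of FABP1 sit between 0.705 and 1.44 FPKM, above all LMO samples, and CPT1A is listed at 0 in all 5 LMO samples.

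Markers of the cells that express FABP1 most strongly were low, and in HMO and LMO their sum went with FABP1 only in part. Of 12 enterocyte and hepatocyte genes, 11 had a row and 1 had a mean above 0.5 FPKM, while FABP2, APOA4 and APOC3 were listed at 0 in all 29 samples. Their summed FPKM ran from 1.24 to 2.72 in HMO and from 0.760 to 0.769 in 4 LMO samples, below all of HMO, with LMO replicate 3 at 1.88. FABP1 was listed at 0 in LMO replicate 3. LMO replicate 5, the LMO sample with FABP1 above 0, had the lowest sum, 0.760 FPKM. The part of these cells in the FABP1 values was not tested. The 5 genes whose levels ranked most like FABP1 over the 29 samples were FAM114A1 (Spearman's rho 0.738), RAD9B (0.686), SLC16A11 (0.684), TMEM200A (0.678) and PHGDH (0.673). For comparison, 99% of genes had a rho below 0.550, which the 5 highest-ranked genes exceed by the way they were picked. The samples share their libraries and zeros, and these values are a description.

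FABP3, the heart-type binding protein of muscle and other fatty acid oxidizing tissues, was high in every group. In HSO replicates 1, 3, 4 and 5 it measured 1148, 527.8, 760.7 and 1122 FPKM. In LSO it measured 242.6, 358.4, 246.6, 712.7 and 703.8 FPKM. Of the 4 HSO samples, 3 lay above all LSO samples and 1 lay between them.

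The small follicle means of FABP3 were 889.6 ± 299.1 in HSO (n = 4) and 452.8 ± 237.8 FPKM in LSO (n = 5). The difference was 1.07 on the log2(FPKM + 1) scale (95% interval 0.14 to 1.999), and the limma p was under 0.05 unadjusted and 0.880 after adjustment, so it did not pass over all genes tested. FABP3 was 1 of 4 members tested in this contrast, where 4.41% of 8376 genes had an unadjusted p under 0.05 and 0.0119% passed after adjustment. The unadjusted call was lost when HSO replicate 1 or 5 or LSO replicate 1, 2 or 3 was left out. The difference stayed between 0.88 and 1.295 over all fits with 1 sample left out, and was 0.95 with the term for detected genes (adjusted p = 0.614).

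In large follicles FABP3 measured 981.3, 559.6, 706.2, 265.5 and 1031 FPKM in HLO and 725.6, 391.4, 586.0, 194.3 and 1011 FPKM in LLO. These groups overlapped over most of their range, and the difference was 0.34 (95% interval −0.88 to 1.56, limma adjusted p = 0.885). At each equal replicate number HLO was the higher one, though equal numbers were not taken as pairs. With the replicate number as a term, 0 members had an unadjusted limma p under 0.05 in large follicles. With LLO replicate 4, the lowest LLO sample, left out, the difference was −0.0039. In medium follicles FABP3 measured 880.5, 877.2, 502.2, 426.9 and 592.9 FPKM in HMO and 953.1, 112.3, 520.9, 731.0 and 772.0 FPKM in LMO. There LMO was the higher one at each equal replicate number except 2. LMO replicate 2, the sample with the lowest FPKM sum, held the lowest FABP3 value of all 29, and without it the HMO minus LMO difference went from 0.33 to −0.21.

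Over large and small follicles together the FABP3 difference was 0.68 with the high fertility mean the higher one (95% interval −0.07 to 1.43, limma adjusted p = 0.526). Its difference in large minus that in small follicles was −0.73 (95% interval −2.24 to 0.78, adjusted p = 0.971), so the 2 stages were not shown to differ. The gene ranked most like FABP3 was SLC29A3, a nucleoside transporter (rho 0.922 over 29 samples, where 99% of genes had a rho below 0.804).

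FABP5, the epidermal-type binding protein found in many cell types, also had 2 further rows in the table, both listed at 0 in all samples. Whether these rows share sequence was not tested. Per the authors' methods only reads with a unique match were kept, so any reads shared between the rows would not be counted. In large follicles it measured 203.0, 174.0, 373.2, 206.1 and 247.6 FPKM in HLO and 795.3, 124.5, 153.6, 759.8 and 304.1 FPKM in LLO. LLO held both the highest and the lowest values, and the difference was −0.48 (95% interval −1.77 to 0.81, limma adjusted p = 0.860). In small follicles it measured 458.3, 226.9, 416.2 and 435.1 FPKM in HSO and 472.1, 125.7, 561.7, 732.2 and 446.2 FPKM in LSO. The groups overlapped, at −0.13 (95% interval −1.20 to 0.94, limma adjusted p = 0.965).

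In medium follicles FABP5 measured 523.9, 183.6, 429.7, 319.0 and 560.1 FPKM in HMO and 291.7, 71.2, 386.9, 166.4 and 522.2 FPKM in LMO. These groups overlapped too, with a difference of 0.68, which was 0.25 without LMO replicate 2. At each equal replicate number HMO was the higher one, though equal numbers were not taken as pairs. Over large and small follicles together the FABP5 difference was −0.31 (95% interval −1.12 to 0.50, limma adjusted p = 0.810).

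**Figure D2:**
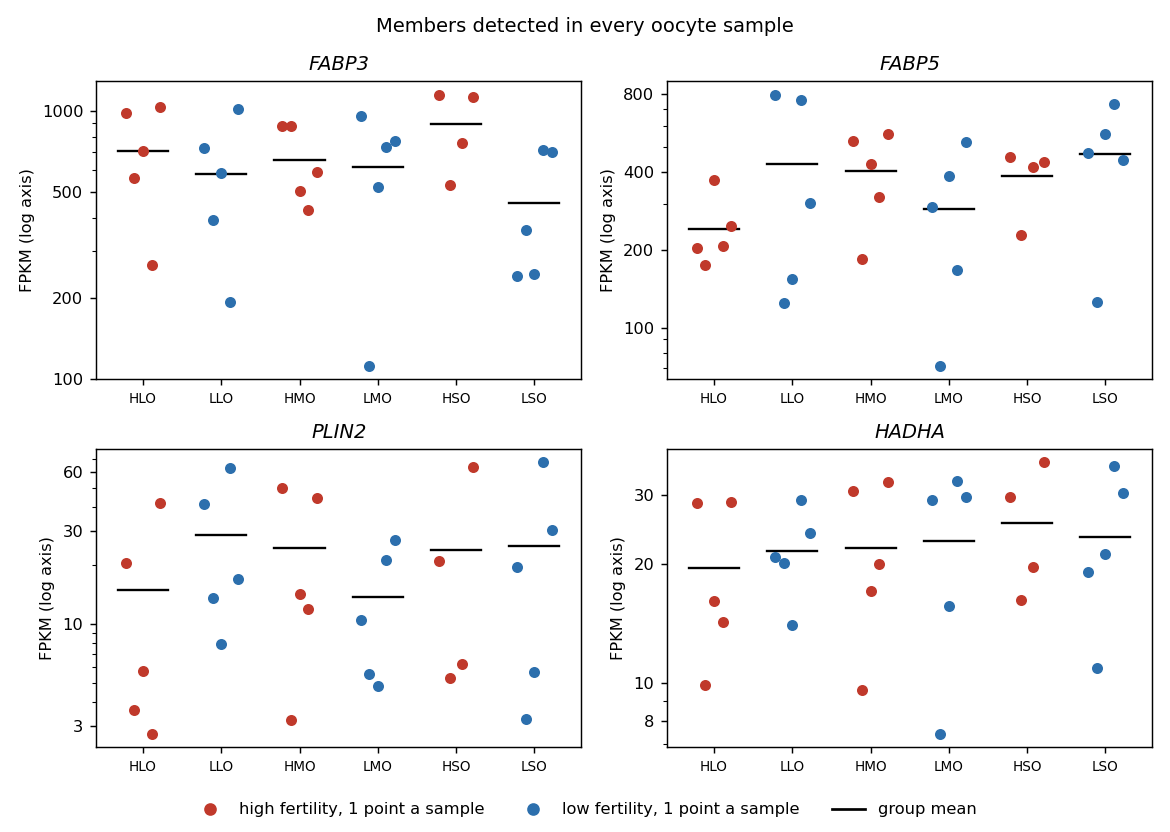
FPKM (log axis) of FABP3, FABP5, PLIN2 and HADHA in each of the 29 samples, by group; points are samples and black lines are group means. High and low fertility samples overlap in every stage, and PLIN2 spreads most, from 2.74 to 67.3 FPKM.

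PLIN2, the perilipin that coats droplets in most cells that store lipid, varied more between samples than the other members above 0.5 FPKM in all of them. Its CV was 91.9%, against 45.0% for FABP3, 53.7% for FABP5 and 37.6% for HADHA. In large follicles it measured 20.5, 3.62, 5.73, 2.74 and 41.7 FPKM in HLO and 41.5, 13.6, 7.89, 63.0 and 17.0 FPKM in LLO. Of the HLO samples, 3 lay below all LLO samples and 2 lay among them.

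The PLIN2 difference in large follicles was −1.18 on the log2(FPKM + 1) scale, the low fertility mean being the higher one (95% interval −2.79 to 0.43, limma adjusted p = 0.828). PLIN2 reached an unadjusted p under 0.05 when HLO replicate 5 was left out, with limma array weights, and with the term for detected genes, and its adjusted p was 0.634 in the last of these fits. In small follicles it measured 21.0, 5.28, 6.24 and 63.9 FPKM in HSO and 19.7, 3.27, 5.67, 67.3 and 30.2 FPKM in LSO. The ranges were almost the same, and the difference was −0.06 (95% interval −2.04 to 1.93, limma adjusted p = 0.994), a direction that turned with median-of-ratios scaling.

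In medium follicles PLIN2 measured 49.8, 3.21, 14.3, 11.9 and 44.1 FPKM in HMO and 10.5, 5.52, 4.81, 21.3 and 26.9 FPKM in LMO, again overlapping. Over large and small follicles together the difference was −0.65 (95% interval −1.93 to 0.63, limma adjusted p = 0.737). Its difference in large minus that in small follicles was −1.12 (95% interval −3.71 to 1.46, limma adjusted p = 0.971). A second PLIN2 row was listed at 0 in all samples.

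HADHA, the α subunit of the mitochondrial trifunctional protein that carries out the later steps of long-chain β-oxidation, was the steadiest of these 4 members. In large follicles it measured 28.6, 9.90, 16.2, 14.3 and 28.8 FPKM in HLO and 20.9, 20.1, 14.0, 29.2 and 24.0 FPKM in LLO. In small follicles it measured 29.6, 16.2, 19.7 and 36.3 FPKM in HSO and 19.1, 10.9, 21.2, 35.5 and 30.3 FPKM in LSO. In both stages the groups overlapped.

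The HADHA differences were −0.21 in large follicles (95% interval −1.17 to 0.74, limma adjusted p = 0.914) and 0.15 in small follicles (95% interval −0.75 to 1.05, limma adjusted p = 0.952). The latter turned to −0.08 without LSO replicate 2. Over both stages the difference was −0.04 (95% interval −0.62 to 0.54, limma adjusted p = 0.977), and 0.05 with median-of-ratios scaling. In medium follicles HADHA measured 30.7, 9.55, 17.1, 20.03 and 32.4 FPKM in HMO and 29.2, 7.42, 15.7, 32.6 and 29.7 FPKM in LMO, with a difference of −0.01. Again LMO replicate 2 held the lowest value of all samples.

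PLIN2 and HADHA followed the number of detected genes. In the 14 samples with fewer detected genes the median of PLIN2 was 5.59 FPKM (2.74 to 17.0), and in the 15 with more it was 30.2 FPKM (6.24 to 67.3). For HADHA the medians were 15.9 (7.42 to 24.0) and 29.7 FPKM (19.1 to 36.3). FABP5 had medians of 216.5 and 458.3 FPKM, FABP3 of 511.5 and 760.7 FPKM, and FABP1 of 0.460 and 0.223 FPKM in samples with fewer and more detected genes. Thus the 4 abundant members had higher medians where more genes were detected, and FABP1 did not. This rise was not particular to the members. Median-of-ratios factors, which follow the typical level of genes above 0 in every sample, were 1.071 to 1.565 where more genes were detected. In samples with fewer detected genes they were 0.6819 to 0.9062, apart from 1.281 in LLO replicate 5. What sets the number of detected genes was not tested.

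Within each kind of sample the relation of PLIN2 to HADHA stayed positive but did not pass correction. Pearson's r was 0.670 and Spearman's rho 0.701 in the 14 samples with fewer detected genes (permutation p = 0.00928 and 0.00661, adjusted over 12 relations 0.0557 and 0.0793). In the 15 samples with more they were 0.538 and 0.625 (permutation p = 0.0365 and 0.0153, adjusted 0.146 and 0.0916). Without the 2 samples farthest from the median of PLIN2, r was 0.586 and 0.415. FABP5 and HADHA had r = 0.686 and rho = 0.574 with fewer detected genes (permutation p = 0.00651 and 0.0349, adjusted 0.0557 and 0.0993), where r was 0.450 without the 2 farthest samples, and r = −0.129 and rho = 0.0464 with more (permutation p = 0.651 and 0.873, adjusted 0.651 and 0.890). The other 8 of the 12 relations had adjusted p values between 0.0993 and 0.890. The gene ranked most like PLIN2 over all samples was RTF2 (rho 0.950), and that most like HADHA was CDC123 (rho 0.920). Many genes came near these values, since 99% of genes had a rho below 0.888 for PLIN2 and below 0.857 for HADHA.

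**Figure D3:**
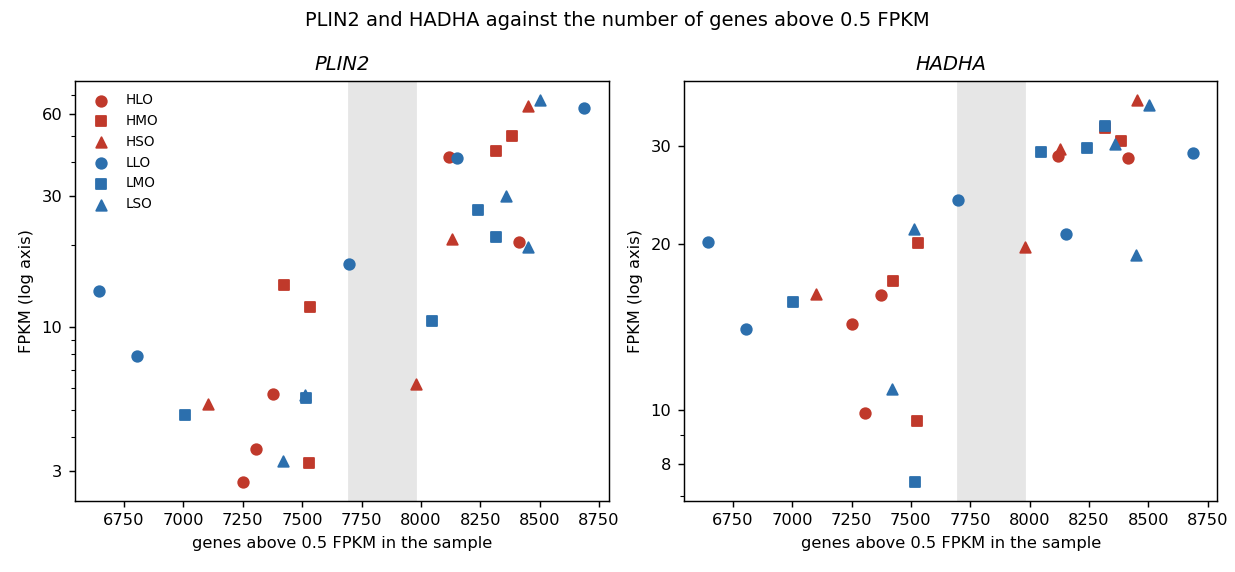
FPKM (log axis) of PLIN2 and HADHA against the number of genes above 0.5 FPKM in the sample; points are the 29 samples by group, and the grey band is the gap between 7699 and 7980 genes. Samples right of the gap hold PLIN2 at a median of 30.2 FPKM, against 5.59 FPKM left of it.

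PLIN3, a perilipin that coats nascent droplets, reached at most 0.267 FPKM and was listed at 0 in 21 of 29 samples, among them all of LMO and LSO. PNPLA2 (adipose triglyceride lipase, which removes the first fatty acid from triglyceride) reached at most 0.149 FPKM and was listed at 0 in 11 samples. The description in the PNPLA2 row names the gene ID of CRACR2B, its neighbour in RefSeq, so the identity of that row is uncertain. CPT2, the inner membrane carnitine palmitoyltransferase, ranged from 0 to 0.799 FPKM, and ACADVL, the first enzyme of very long-chain β-oxidation, from 0.0597 to 0.663 FPKM. These members were below the limit for testing.

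CPT1A, the outer membrane enzyme that starts mitochondrial entry and is the liver form of CPT1, was the one other member with groups that did not overlap. In HMO it measured 0.0358, 0.00977, 0.0305, 0.0108 and 0.0291 FPKM, and in LMO it was listed at 0 in all 5 samples. In small follicles the order was the opposite: HSO held 0, 0, 0 and 0.00861 FPKM, and LSO held 0.301, 0.0322, 0.104, 0.147 and 0.0363 FPKM. In large follicles the groups overlapped, from 0 to 0.0432 FPKM in HLO and from 0 to 0.280 FPKM in LLO.

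All CPT1A values lay under 0.5 FPKM, and none of the fits with the filter tested it. In small follicles 1.79% of 16052 genes above 0 had groups that did not overlap, and in large follicles, where no member did, 0.476% of 15959 genes. In medium follicles it was 1.49% of 16021 genes. The count of members not overlapping was 2 in medium, 1 in small and 0 in large follicles, out of 10. FABP1, 1 of the 2 in medium follicles, was chosen for that difference, so nothing is read from this count.

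In the fits that did not use medium follicles, no member passed after adjustment. In large follicles 0 of 5 members tested had an unadjusted limma p under 0.05, beside 4.14% of 8328 genes, and 0% of genes passed after adjustment. Over large and small follicles together 0 of 5 members had an unadjusted limma p under 0.05, beside 9.72% of 9336 genes, and 0% passed after adjustment. For the difference between the 2 stages' fertility differences these were 0 of 5 members, 1.92% and 0% of 9336 genes. The members tested were those above 0.5 FPKM in at least 4 samples of the fit.

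**Figure D4:**
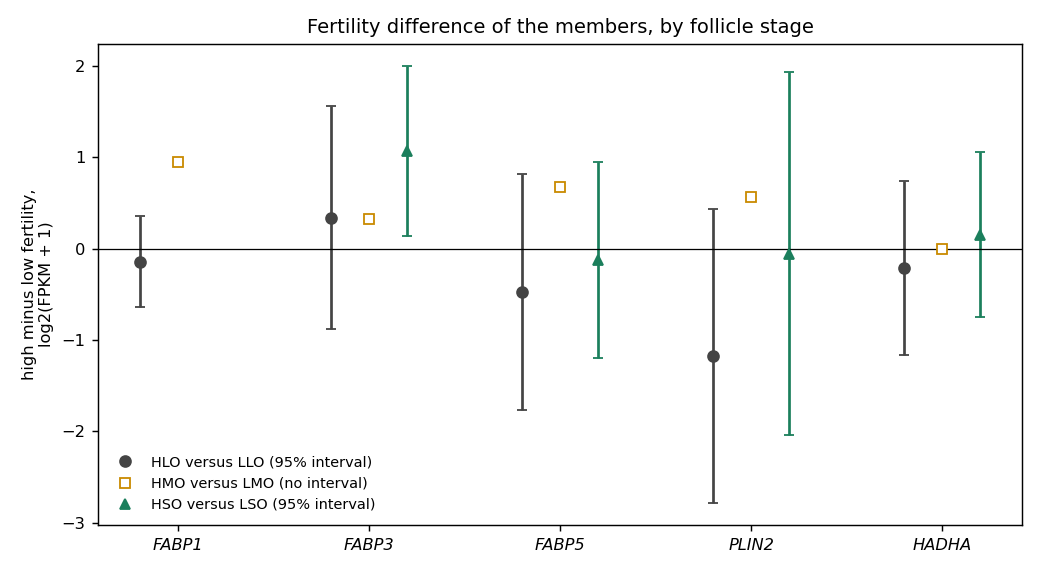
High minus low fertility on the log2(FPKM + 1) scale for the 5 members tested, by follicle stage; error bars are 95% intervals from limma, and the medium follicle values (open squares) carry none because FABP1 was chosen in that contrast. The interval of FABP3 in small follicles, 0.14 to 1.999, is the one that leaves out 0, and its adjusted p was 0.880.

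Averaged over high and low fertility, the follicle stage did not change the members detectably. In a limma F-test over the 3 stages with fertility as a covariate, the adjusted p was 1 for each of the 5 members tested, and 0 of 5 had an unadjusted limma p under 0.05. Over all 9692 genes, 1.66% had an unadjusted p under 0.05 and 0% passed after adjustment. The large minus small difference was 0.19 ± 0.20 for FABP1 (SE, log2(FPKM + 1) scale), −0.02 ± 0.37 for FABP3, −0.51 ± 0.40 for FABP5, −0.08 ± 0.61 for PLIN2 and −0.21 ± 0.29 for HADHA. That of FABP5 exceeded its SE, and the other 4 did not. For FABP1 the medium stage joins HMO, with the highest group mean (1.02 FPKM), and LMO, with the lowest (0.0445 FPKM). These values chose FABP1, and opposite changes in the populations can cancel in the stage means. The lowest HMO sample, at 0.7052 FPKM, was above the highest HLO (0.6605 FPKM) and HSO (0.4204 FPKM) samples, while LMO overlapped LLO and LSO. Stage within a population was not tested.

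The wider pathway gives these levels a setting. Of 157 listed genes of fatty acid handling, 151 had a row, 83 were above 0.5 FPKM in at least 4 samples, 44 in all 29 and 53 in none. The table holds no counts, so a gene at 0 is described only as listed so. Listed at 0 in all samples were MGLL, PLIN4, ACOX2, MLXIPL, FABP2, RXRA, SREBF1 and LPL.

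FABP3 and FABP5 were the 2 most abundant genes of the whole list. Of 13 binding genes 9 passed the limit in at least 4 samples and 5 in all. By contrast, 2 of 11 uptake genes passed it in at least 4 samples, namely GOT2 (mitochondrial aspartate aminotransferase, also known as a plasma membrane fatty acid binding protein, 1 of 2 rows) at 11.2 and the scavenger receptor CD36 at 3.02 FPKM. Activation to acyl-CoA was led by the long-chain acyl-CoA synthetases ACSL3 at 11.6 FPKM and ACSL4, with 4 of 10 genes over the limit in at least 4 samples.

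In the carnitine shuttle, to which CPT1A and CPT2 belong, 2 of 9 genes passed the limit in at least 4 samples. CROT, which attaches carnitine to medium-chain acyl groups in peroxisomes, stood at 99.8 ± 40.8 FPKM (SD, n = 29), and SLC25A20, the carnitine-acylcarnitine carrier of the inner mitochondrial membrane, at 2.88 ± 3.76 FPKM. CPT1B and CPT1C, the muscle and brain forms of CPT1, averaged 0.0366 and 0.0761 FPKM, so all 3 CPT1 genes were below 0.5 FPKM in all samples. Downstream of the shuttle, 16 of 21 mitochondrial β-oxidation genes with a row passed the limit in at least 4 samples and 12 in all 29. HSD17B10, a mitochondrial hydroxyacyl-CoA dehydrogenase, at 186.2 and ETFA, the electron acceptor subunit that serves acyl-CoA dehydrogenases, at 92.4 FPKM were the highest, and HADHA belonged to the 12.

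Among 13 peroxisomal genes with a row, 6 passed the limit in at least 4 samples, led by PECR at 37.4 FPKM, a reductase of enoyl-CoA, and the transporter ABCD3 at 4.74 FPKM. Of 23 droplet and storage genes 12 passed it, with LPIN2, a phosphatidate phosphatase, at 132.9 FPKM above PLIN2. Of 10 lipolysis genes with a row 5 passed it, with the phospholipase PNPLA8 at 6.11 and DDHD2 at 3.78 FPKM well above the row named PNPLA2. Synthesis had 14 of 18 genes over the limit, with the elongases ELOVL4 at 9.92 and ELOVL2 at 5.03 FPKM. Regulation had 13 of 23, with PRKAG1, a subunit of AMP-activated kinase, at 28.5 and the corepressor NCOR1 at 24.2 FPKM.

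**Figure D5:**
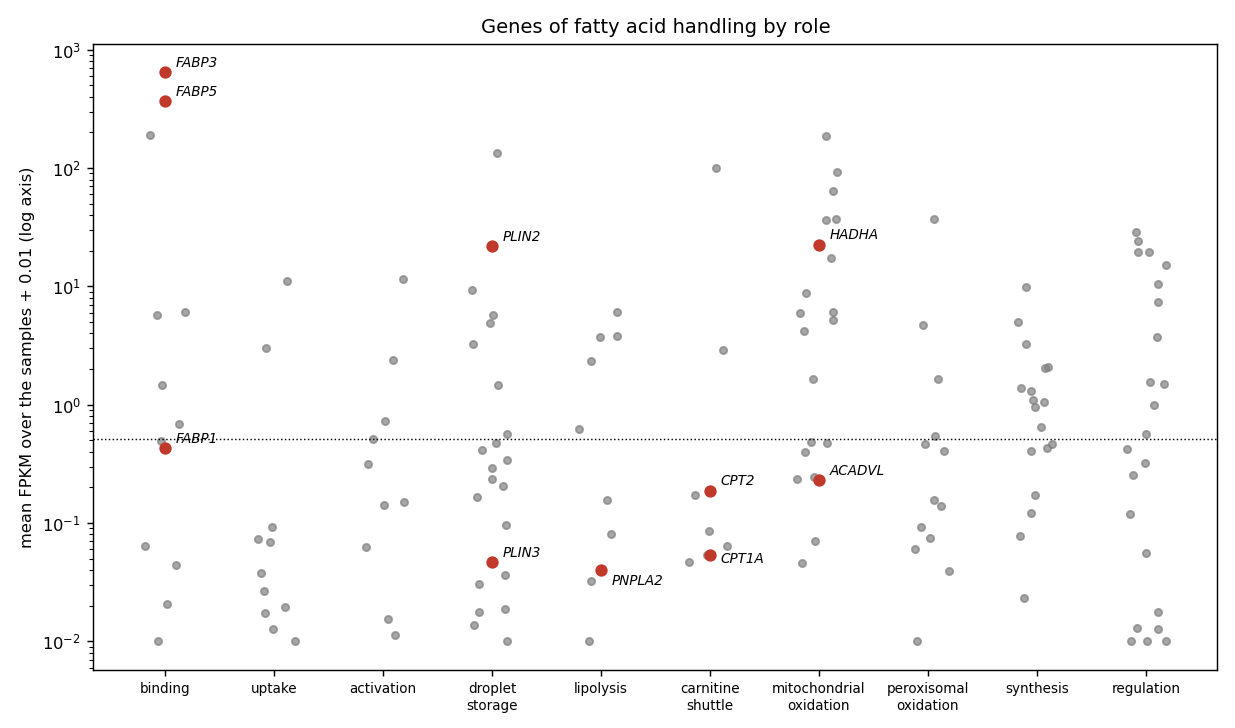
Mean FPKM over the 29 samples plus 0.01 (log axis) for the listed genes with a row, by role; red points are the 10 members, grey points the other genes, and the dotted line marks 0.5 FPKM. FABP3 and FABP5 lie at the top of the binding genes, and CPT1A and CPT2 lie below the line while CROT in the same role lies at 99.8 FPKM.

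No pathway gene passed after adjustment in a contrast other than the one that chose FABP1. In large follicles 3 of 71 pathway genes tested had an unadjusted limma p under 0.05, all with the higher mean in HLO, and 0 passed after adjustment. That is 4.23% of them, against 4.14% of all genes. They were ACACA, the rate-limiting carboxylase of fatty acid synthesis, ECHS1, the hydratase of short-chain β-oxidation, and the acyl-CoA thioesterase ACOT8. In small follicles 5 of 72 did by limma, with FABP3 higher in HSO and NCOR1, EP300, AGPAT3 and NR1H3 lower, and 0 passed after adjustment. That is 6.94%, against 4.41% of all genes. In medium follicles, the contrast that chose FABP1, 5 of 69 did, namely FABP1, DBI, NR1H3, ACLY and ACOX3, which is 7.25%, against 8.67% of all genes. Over large and small follicles together it was 8 of 81 by limma, 2 higher and 6 lower, or 9.88% against 9.72% of all genes, and 0 passed. For stage it was 3 of 83 (3.61% against 1.66%) and for the difference between stages 3 of 81 (3.70% against 1.92%) by limma, and again 0 passed.

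NR1H3, the nuclear receptor LXRα that senses oxysterols and acts on lipid genes, had the widest difference among them. In HSO it measured 3.16, 4.15, 6.37 and 3.27 FPKM and in LSO 87.7, 10.1, 80.2, 36.5 and 2.82 FPKM. Of the LSO samples 4 lay above all HSO samples and 1 below them, a difference of −2.34 ± 0.84 (SE, log2(FPKM + 1) scale, limma adjusted p = 0.880). In medium follicles it measured 32.7, 2.96, 59.1, 50.9 and 25.6 FPKM in HMO and 4.54, 5.604, 9.83, 6.29 and 3.21 FPKM in LMO. There 4 HMO samples lay above all LMO samples and 1 below them, so the order of the populations was opposite to that in small follicles, a change of order that was not tested.

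The median difference of the pathway genes lay near that of all genes tested. In large follicles it was −0.09 over the list and −0.09 over all genes, in small follicles 0.007 and −0.006, and over both stages −0.0002 and −0.04, all on the log2(FPKM + 1) scale.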

How the data were processed

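RNA-seq was run on 29 oocyte samples. Per the authors' methods, reads with a unique match to the goat genome and less than 5 mismatches were kept, duplicates were removed with picard, and Cufflinks 2.2.1 with Ensembl annotation gave the deposited FPKM values, 1 table for the series. The aligner and genome build are not given in the sources used here. The FPKM table holds no counts, and read totals are not used here, so no depth is given and the number of samples limits precision. Groups came from sample titles, and 1 column matching no sample was left out. No 2 samples held identical values.

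FPKM was tested as log2(FPKM + 1) with limma 3.58.1 in R 4.3.3 (moderated test with trend), for genes above 0.5 FPKM in at least 4 samples of the fit, with Benjamini-Hochberg adjustment over all genes tested. The fits used HLO and LLO, HSO and LSO, these 4 groups with stage as covariate or with an interaction, and all 6 groups for stage. HMO and LMO were fitted for description. The script was tested on simulated data. Relations between members were computed with permutation tests (100000 resamples, two-sided, NumPy 2.4.6, with ranks from SciPy 1.17.1) within the samples with fewer and with more detected genes.

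The members and gene lists were chosen with earlier results of these data known. Named pathway genes were the 2 most abundant per role, those whose log2 difference passed 1 in large or small follicles at an unadjusted p under 0.05, the 5 most like FABP1 and the 1 most like each other tested member. Other genes named with a count, and CPT1B and CPT1C, were chosen after their values were seen. Alternatives were a pseudocount of 0.1, no filter, a limit of 1 FPKM, median-of-ratios scaling, array weights, a replicate block, each sample left out and, chosen after seeing the data, a term for the samples with fewer or more detected genes.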

Additional observations from a re-analysis of the deposited data

Results flagged for a closer look

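Of 57 sets of member values in a group, 7 held a sample far from the others by Dixon's criterion, which chance meets in about 1 in 20 groups of normally distributed values. That rate does not hold for the 4 of them in which 1 value stood above 0 and the others at 0, since the criterion is then always met. FABP1 was at 0.223 FPKM in LMO replicate 5 and at 0.420 FPKM in HSO replicate 1, each the one value above 0 in its group. FABP3 was lowest in LMO replicate 2 at 112.3 FPKM, the sample with the lowest FPKM sum. FABP5 was lowest in HSO replicate 3 at 226.9 FPKM and in LSO replicate 2 at 125.7 FPKM, both samples with fewer detected genes. PLIN3 stood at 0.204 FPKM in HMO replicate 2 and CPT1A at 0.00861 FPKM in HSO replicate 5, each in a group otherwise at 0.

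CPT1A moved in opposite directions in 2 stages. Its mean in HMO was 0.0232 FPKM above that in LMO, with every HMO sample above every LMO sample, and its HSO minus LSO difference was −0.122 FPKM, with every HSO sample below every LSO sample. The difference between the stages was not tested, and all values lay below 0.5 FPKM.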

How the results depend on the processing

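The number of members with an unadjusted limma p under 0.05 in large follicles was 0, and it became 1 (PLIN2) with array weights or the term for detected genes, and 0 to 1 with each sample left out. In small follicles it was 1 (FABP3), became 2 with no filter (CPT1A added), and was 0 to 1 with a sample left out. Over both stages it was 0, became 1 with no filter (CPT1A), median-of-ratios scaling (FABP3), array weights or the term for detected genes (PLIN2), and was 0 to 1 with a sample left out (FABP3 without HLO replicate 4 or LLO replicate 5). In medium follicles it was 1, became 2 with no filter (CPT1A added), the replicate block (FABP5 added) or the term for detected genes (PLIN2 added), 0 with the limit of 1 FPKM, which leaves FABP1 out, and stayed 1 with each sample left out. The medium follicle count includes FABP1, which was chosen in that contrast, so nothing is read from this count. The adjusted call of FABP1 there was lost with no filter and in 8 of 10 fits with a sample left out. For stage and for the difference between stages the number of members was 0 under every alternative.

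Directions turned for FABP1 in large follicles with array weights (0.15), for PLIN2 in small follicles with median-of-ratios scaling (0.0121) and for HADHA in small follicles with the replicate block (−0.0820) and over both stages with median-of-ratios scaling (0.0462). The FABP1 difference in medium follicles moved to 3.12 with a pseudocount of 0.1. With each sample left out, 19 of 276 differences outside medium follicles turned: FABP3 in large follicles ranged from −0.0039 to 0.66, FABP5 in small from −0.55 to 0.11, PLIN2 in small from −0.73 to 0.45, HADHA in small from −0.0820 to 0.34 and over both from −0.15 to 0.0708, and between stages FABP1 from −0.0435 to 0.26 and FABP5 from −0.69 to 0.0725. Under the other settings 4 of 130 turned, and none of these differences passed adjustment in any fit. In medium follicles 6 of 50 turned with a sample left out, FABP3 ranging from −0.21 to 0.56 and HADHA from −0.34 to 0.24, and 4 of 34 under the other settings (FABP3 to −0.41 and PLIN2 to −0.32 with array weights, HADHA to 0.09 with median-of-ratios scaling and to 0.24 with the term for detected genes). The cause was not tested.

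Equal replicate numbers were not taken as pairs, since no source ties them to a goat or batch and same-numbered samples did not always deviate together. Correlations of the deviations ran from −0.48 to 0.71 over the 14 same-numbered pairs. They were at or below 0.1 in 4 pairs, 3 of them with replicate number 4. As a hint from the data, 10 lay above 0.1, 7 correlated best with their own number, and the replicate number went with the number of detected genes. Genes with an unadjusted p under 0.05 in large, medium and small follicles numbered 345, 727 and 369, and became 684, 1376 and 788 with the replicate block, 1372, 3341 and 679 with array weights, 609, 1302 and 743 with no filter, and 559, 1835 and 656 with the term for detected genes. Over both stages 907 became 1433, 1766, 1336 and 1445, for stage 161 became 277, 817, 364 and 219, and for the difference between stages 179 became 440, 603, 432 and 317 (284 with median-of-ratios scaling). With each sample left out these counts ranged from 152 to 879 in large, 398 to 1046 in medium and 153 to 643 in small follicles, 602 to 1352 over both stages, 85 to 489 for stage and 88 to 668 between stages, so the shares over all genes are not firm. After adjustment the 6 genes in medium follicles became 127, 1011, 0 and 264, 13 with median-of-ratios scaling, and 0 to 160 with a sample left out. FPKM without counts does not show how many reads stand behind the FABP1 and CPT1A values.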
